A study of Sus scrofa with 28 samples.

Results

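The fast myosin genes examined here are MYLPF and MYL1, which encode light chains, and MYH1 and MYH2, which encode heavy chains. Every probe of the array whose platform annotation gave exactly 1 symbol equal to one of these names was taken. That gave 43 of 4608 probes, with 34 listed for MYLPF, 3 for MYL1, 5 for MYH1 and 1 for MYH2. None of the 43 was called different between destructured and normal ham muscle after adjustment over the whole array, where 0.651% of all probes were called. The probes listed for MYLPF did not stand at a common level. Pairs of them correlated from pig to pig no more than pairs listed for different genes, though repeat spots of 1 probe correlated weakly too.

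Muscle contracts when myosin heavy chains pull on actin filaments, and each heavy chain carries an essential and a regulatory light chain on its neck. MYLPF encodes the regulatory light chain of fast skeletal fibres, which is phosphorylated during contraction. MYL1 encodes their essential light chain in alternative forms. MYH2 encodes the heavy chain of the fast oxidative fibres (type IIa), MYH1 that of the faster, more glycolytic fibres (type IIx). White muscles of the pig ham are rich in fast glycolytic fibres, which acidify quickly after slaughter. MYH1 and MYH2 are neighbours in the RefSeq annotation of the pig (Sscrofa11.1), with MYH4 on the other side of MYH1. Their coding sequences are closely related, so a cDNA probe of either one can capture transcripts of the other, and the separate values of MYH1 and MYH2 are uncertain for that reason. Whether these probes also capture transcripts of MYH4 was not tested.

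The samples were the semimembranosus, a muscle of the ham, of 14 pigs. The 7 normal pigs had meat of low L*, a lightness reading, and the 7 destructured pigs had pale meat of high L*, a defect in which the muscle loses its structure. No treatment is named in the labels, and breed, age and sex are not given in the sources used here. Because the groups were formed from the meat after slaughter, they describe a quality grade and not an experimental exposure. Each pig's RNA was copied into radioactively labelled cDNA and hybridised to 1 membrane that carries every probe in a left and a right part. The 2 parts repeat the same RNA, so the pig is the replicate. Values below are log2 spot intensities after quantile normalization, averaged over the parts. The annotation gave 1 symbol to 509 probes, which stand for 211 genes.

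One array part stood apart. Over all probes the left and right parts of a membrane correlated at a median of 0.947. In normal replicate 3 the correlation was 0.380, and the next lowest was 0.868. Over the 43 fast myosin probes the same array had 0.313, against 0.866 to 0.969 in the other 13 pigs. The right part of this array is called the discordant part below, and results that it touches are given with and without it. A low correlation does not say which of the 2 parts is at fault, and results without only the left part of this array are not given. A pig number in the labels of normal replicate 2 is found again in destructured replicate 3, and whether it names 1 animal is not given. Without both of these pigs 0 of the 43 probes were called (limma, smallest adjusted p 0.348; 4 at an unadjusted p under 0.05, against 10.5% of the array), where 0.0651% of the array was called.

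Whether the platform annotation is in register with the rows of the value table was not tested, so every value below is that of a probe listed for a gene, and a gene name says only what the probe is listed for. The 34 probes listed for MYLPF had a median level of 1.39, and all 4608 probes had a median of 1.43. Of the 34, 15 lay above the middle of the array, 5 lay in its brightest 25% and 9 in its dimmest 25%. The brightest, probe 8390, was at 4.29 (percentile 95.9 of the array), and the dimmest, probe 6058, was at -0.29 (percentile 6.45). Clones listed for a single gene thus spanned most of the ranks of the array. All probes ran more widely in signal, from -2.59 to 7.32. The scale is the signal of a spot, which depends on the cloned fragment as well as on the transcript, and levels of different probes are therefore not compared as amounts of RNA and give no check of the names.

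The 3 probes listed for MYL1 lay low, at 1.15 (probe 9087), -0.15 (probe 4791) and -0.30 (probe 7984). Probes 4791 and 7984 were at percentiles 8.62 and 6.32 of the array. The 5 probes listed for MYH1 ranged from 0.81 (probe 7372) to 4.94 (probe 7517). Probe 7517 reached percentile 97.7 and was the brightest of the 43. The single probe listed for MYH2, 6493, was at 2.93, percentile 82.9. The 6 measured genes of a fixed list of skeletal muscle markers (CKM, DES, MYH7, MYLPF, TNNI2 and TNNT3) had 90 probes with a median at percentile 48.5, and 43 of the 90 lay above the middle. The 3 probes listed for DES, desmin of the muscle cytoskeleton, lay between percentiles 14.9 and 19.9. The brightest probe of each other gene of the list stood higher, from percentile 85.2 (MYH7) to 97.3 (CKM). Each probe is called below by its number.

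**Figure D1:**
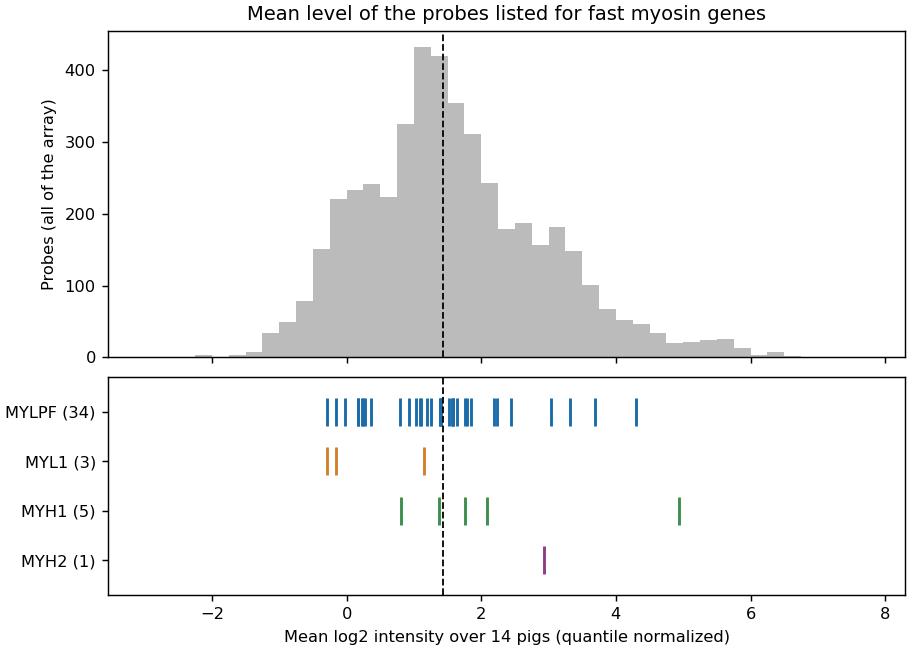
The upper panel counts all 4608 probes by mean log2 intensity over the 14 pigs, and the lower panel marks each fast myosin probe by gene (number of probes in brackets), with a dashed line at the median of all probes, 1.43. The 34 marks of MYLPF run from -0.29 to 4.29 on both sides of the line, while all 3 marks of MYL1 lie below it.

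The first comparison asked which probes differed between destructured and normal muscle. By limma with Benjamini-Hochberg adjustment over 4608 probes at 0.05, 0 of the 43 fast myosin probes were called, where 0.651% of the array was called (30 probes; 0.543% higher and 0.109% lower in destructured pigs). The smallest adjusted p among the 43 was 0.144. At an unadjusted p under 0.05 stood 5 of the 43 probes, or 11.6%, against 13.0% of the array, with 3 higher in destructured pigs (8.40% of the array) and 2 lower (4.64%), so the members' share lay near the background. A two-sided exact permutation test over all 3432 splits of the pigs, adjusted over all probes, called 0 of the 43 as well, where it called 1.28% of the array, with 6 at an unadjusted p under 0.05 against 14.6% of the array. With the array part as a block and the pig as a random block, limma called 0 of the 43 and 2.32% of the array, with 7 at an unadjusted p under 0.05 against 13.9% of the array. The 2 groups overlapped for each of the 43 probes, whereas they did not overlap for 1.28% of the array. In whole muscle, fewer cells of a fibre type and less transcript per cell cannot be told apart.

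By sign, 16 of the 43 differences (destructured minus normal) were positive and 27 negative, and the median was -0.05, beside 46.3% positive and a median of -0.02 over all probes. The balance moved with the processing. Of the 43, 23 (53.5%) were positive without the discordant part, against 48.7% of the array, with a median of 0.0057. With array weights 25 (58.1%) were positive, against 48.0% of the array. On the deposited scale 32 (74.4%) were, below the 81.9% of the array. With the median of each repeating table position removed 14 (32.6%) were positive, against 48.3% of the array. With this and the discordant part left out 16 (37.2%) were, against 47.8%. For MYLPF 13 were positive and 21 negative, with a median of -0.05 and a range from -0.47 to 0.50, and without the discordant part 17 of the 34 were positive. The 95% intervals show what 7 pigs a group could resolve. For 42 of the 43 probes the interval lay within 1 on the log2 scale in both directions, a 2-fold change, and for 19 it lay within 0.5. The widest ran down to -1.09, for MYLPF probe 4950.

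**Figure D2:**
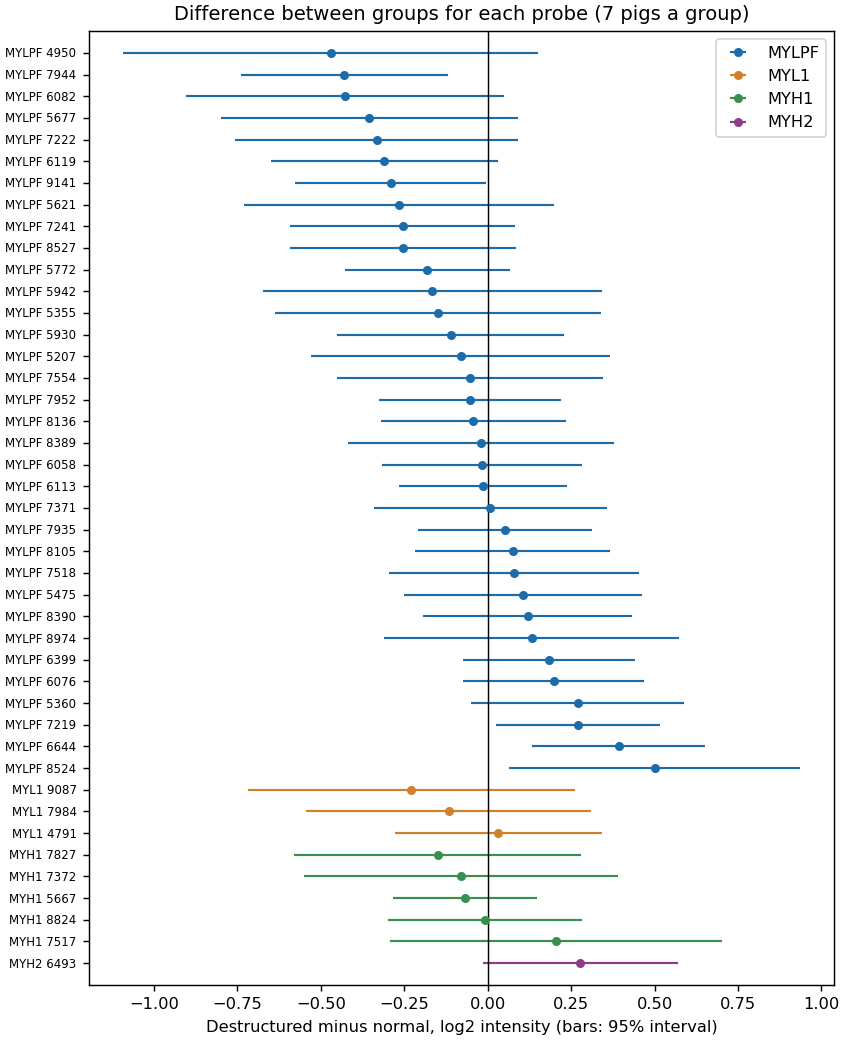
Each point is the difference between destructured and normal pigs (log2 intensity) for 1 probe, with its 95% interval from the limma fit, sorted within each gene. Probes listed for MYLPF lie on both sides of 0, from -0.47 to 0.50, and the interval of the MYH2 probe reaches from -0.015 to 0.57.

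Among the probes listed for MYLPF, the regulatory light chain gene, 6644 had the smallest p. Its level in normal pigs ran from -0.18 through a median of -0.020 to 0.20, and in destructured pigs from 0.072 through 0.40 to 0.78. All 7 destructured pigs lay above the normal mean, and the ranges overlapped at their edges. The difference was 0.39 (SE 0.12, n = 7 each, limma adjusted p = 0.144), 1.31-fold. It was 0.39 also without the discordant part (adjusted p = 0.0771), and it was positive in both array parts alone, at 0.28 in the left and 0.51 in the right. Across pigs the 2 parts correlated at 0.489 for this probe. Its mean level was at percentile 15.3, so the probe with the smallest p is among the dim ones.

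MYLPF probe 7944 had a difference of the opposite sign. Normal pigs ran from 1.38 through 1.77 to 2.05, destructured pigs from 1.00 through 1.34 to 1.58. All 7 destructured pigs lay below the normal mean of 1.74. The difference was -0.43 (SE 0.15, limma adjusted p = 0.185), and -0.39 without the discordant part. With the median of each repeating table position removed it was -0.21 (SE 0.17). This probe lies in table column 12, where all probes together averaged -0.16.

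MYLPF probe 8524 was bright, at percentile 92.7. Its values in normal pigs ran from 2.56 through 3.45 to 4.41, and in destructured pigs from 3.63 through 3.95 to 4.10. Normal pigs were the more scattered group, with an SD of 0.576 against 0.152, and the lowest of them was normal replicate 3. The difference of 0.50 (SE 0.21, limma adjusted p = 0.296) was the most positive of the 43. It was 0.35 (SE 0.16) without the discordant part and 0.20 with position medians removed as well. Probes 6644, 7944 and 8524 are thus listed for the same transcript, have the smallest p of the 34 and do not share a sign.

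The brightest MYLPF probe, 8390, ran from 3.74 through 4.32 to 4.67 in normal and from 4.21 through 4.33 to 4.65 in destructured pigs. Its medians were nearly equal, and its difference was 0.12 (SE 0.15, limma adjusted p = 0.787). The left part alone gave 0.40 and the right part -0.16. The dimmest, 6058, had a difference of -0.017 (SE 0.14), with normal replicate 3 the highest normal pig at 0.36 and the others at -0.23 or below. Without the discordant part it stood at 0.082.

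The 3 probes listed for MYL1, the essential light chain gene, gave differences of -0.23 (probe 9087), -0.12 (probe 7984) and 0.032 (probe 4791), with limma adjusted p from 0.722 to 0.958. Probe 9087 ran from 0.59 through 1.07 to 2.58 in normal and from 0.54 through 1.07 to 1.39 in destructured pigs. The value 2.58 belongs to normal replicate 3, and without the discordant part the difference of this probe was -0.030 (SE 0.14). Probe 7984 had 1 high normal pig too, replicate 1 at 0.95, with the next at -0.21. Its destructured pigs ran from -0.60 through -0.40 to -0.035. Probe 4791 ran from -0.54 through -0.18 to 0.34 in normal and from -0.40 through -0.23 to 0.15 in destructured pigs. For all 3 the groups overlapped, and in 9087 and 7984 a single normal pig lay above all the others.

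Of the heavy chain genes, MYH1 (type IIx fibres) had 5 listed probes with differences from -0.15 to 0.21, 1 positive and 4 negative, and 4 positive without the discordant part. Probe 7517 ran from 3.37 through 5.07 to 5.39 in normal and from 4.69 through 5.08 to 5.21 in destructured pigs. The low value was again normal replicate 3, and the next normal pig stood at 4.80. Its difference was 0.21 (SE 0.24, limma adjusted p = 0.762), and 0.0059 (SE 0.12) without the discordant part.

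MYH1 probe 7827 ran from 1.42 through 1.58 to 2.88 in normal and from 1.38 through 1.73 to 2.07 in destructured pigs, a difference of -0.15 (SE 0.20). Probe 7372 ran from 0.20 through 0.70 to 2.18 and from 0.55 through 0.77 to 1.08, a difference of -0.080 (SE 0.22). In both the highest normal pig was replicate 3, and without the discordant part the differences were 0.028 and 0.15. Probe 5667 was the least variable, with an SD of 0.101 in normal and 0.105 in destructured pigs. Its values ran from 1.26 through 1.38 to 1.59 and from 1.15 through 1.36 to 1.49, a difference of -0.067 whose 95% interval, from -0.28 to 0.15, was the narrowest among the named probes. The fifth probe, 8824, had a difference of -0.0074. Normal replicate 3 was the highest or the lowest normal pig for all 5 MYH1 probes and for 26 of the 43 (2479 of the 4608 probes of the array).

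The MYH2 probe, 6493, ran from 2.37 through 2.78 to 3.21 in normal and from 2.75 through 3.09 to 3.37 in destructured pigs. Of the 7 destructured pigs 6 lay above the normal mean of 2.79, and the groups overlapped. The difference of 0.28 (SE 0.14, 95% interval from -0.015 to 0.57, limma adjusted p = 0.408) did not pass. It was 0.33 (SE 0.13, adjusted p = 0.214) without the discordant part, and 0.24 and 0.31 from the left and right part alone. With position medians removed it was 0.45 (SE 0.16, adjusted p = 0.291). The probe lies in table column 1, where all probes averaged -0.15. It is the only heavy chain probe listed for the type IIa fibre, so no second clone can be set beside it. Whether its difference departs from that of the MYH1 probes was not tested.

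**Figure D3:**
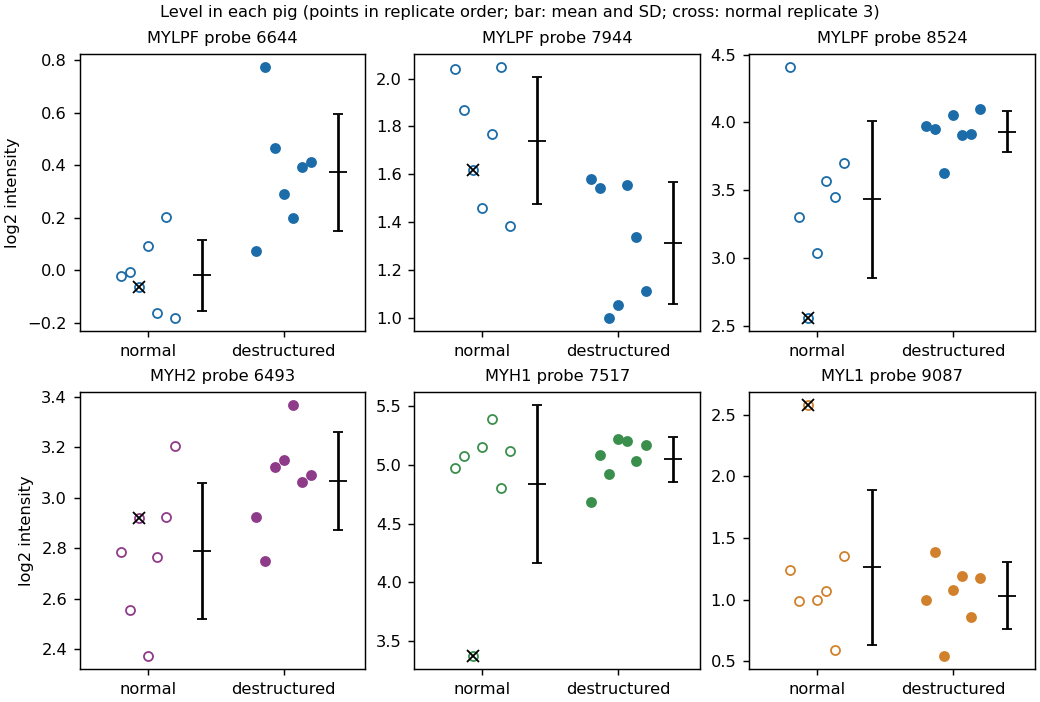
Log2 intensity of 6 probes in each pig, normal (open points) and destructured (filled points) in replicate order, with mean and SD beside them and a cross on normal replicate 3. Probes 6644 and 7944 of MYLPF differ in opposite directions, and normal replicate 3 is the lowest pig for MYH1 probe 7517, at 3.37, and the highest for MYL1 probe 9087, at 2.58.

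Averaging the probes of a gene in each pig gave a mean level of 1.41 ± 0.121 in normal and 1.35 ± 0.0594 in destructured pigs for MYLPF (SD, n = 7). Normal replicate 3 was at 1.68, and the next normal pig at 1.40. Without the discordant part it was at 1.35, and the normal pigs had 1.36 ± 0.0238, so the spread of the 34-probe mean in normal pigs came mostly from this part. For MYL1 the means were 0.285 ± 0.362 and 0.180 ± 0.139, for MYH1 2.20 ± 0.119 and 2.18 ± 0.0888, and for MYH2, with its 1 probe, 2.79 ± 0.271 and 3.07 ± 0.194. When every gene's probes were averaged before the limma fit, which left 4310 rows, the differences were -0.056 (SE 0.099) for MYLPF, -0.10 (SE 0.15) for MYL1 and -0.020 (SE 0.10) for MYH1, with limma adjusted p from 0.811 to 0.959. MYH2 had an adjusted p of 0.399 in that fit. Without the discordant part the differences of the gene means were -0.0088 for MYLPF, -0.031 for MYL1 and 0.028 for MYH1, so the sign of MYH1 turned.

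If the probes of a gene follow its transcript, they should vary together among pigs, as far as repeat spots do. The left and right spots of the same MYLPF probe correlated over the 14 pigs at a median of only 0.121, and at 0.172 without normal replicate 3. These r are of single spots with the group means left in. The r between probes below are of averages of the 2 parts with the group means taken out, so the measures are not the same. A median r near 0 between probes therefore cannot decide whether they follow 1 transcript. Deviations from the group means were correlated over the 14 pigs for all 561 pairs of MYLPF probes. The median r was 0.0035, with quartiles of -0.24 and 0.28. Over 127154 pairs of probes listed for different genes the median was 0.0053, with quartiles of -0.27 and 0.27. The 2 distributions lay on top of each other, so in these data a pair of MYLPF probes was no more alike than a pair of unlike names. Without the discordant part the medians were -0.026 and -0.0020. The 10 MYH1 pairs ranged from -0.89 to 0.73, and the 3 MYL1 pairs from 0.053 to 0.53. These pairs share pigs and membranes, and the r are a description without a test.

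**Figure D4:**
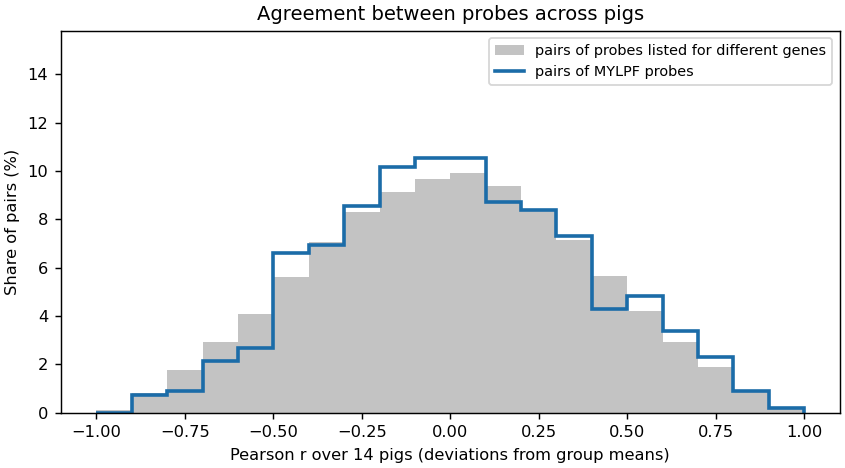
Share of probe pairs (%) by Pearson r over the 14 pigs, after the group means were taken out, for the 561 pairs of MYLPF probes (blue line) and for pairs of probes listed for different genes (grey). Both distributions centre near 0, with medians of 0.0035 and 0.0053.

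The 2 parts of a membrane repeat each probe and give a measure of how far pigs can be told apart. Across the 14 pigs the left and right values of a fast myosin probe correlated at a median of 0.125, from -0.63 to 0.86, beside 0.190 over all probes. Without normal replicate 3 the medians were 0.175 and 0.269. The differences between groups from the left and the right part had the same sign for 29 of the 43 probes, 67.4%, against 63.6% of the array. Of the 3 MYL1 probes all kept the sign, and of the 5 MYH1 probes 2 did. At a median r of this size, a repeat spot told little of the order of the pigs.

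The differences moved with the place of a probe in the value table, whose layout recurs after 72 rows (6 rows by 12 columns). In columns 2 to 7 the median difference of all probes was 0.081, and in the other columns -0.11. The 27 fast myosin probes in columns 2 to 7 had 12 positive values and a median of -0.014, beside 1482 of 2304 positive over all probes there. The 16 in the other columns had 4 positive values and a median of -0.067, beside 652 of 2304. For MYLPF 10 of 19 probes were positive in columns 2 to 7 and 3 of 15 elsewhere. With position medians removed, 33 of the 43 kept their sign and 14 (32.6%) were positive, against 48.3% of the array. After this 0 passed, where 0.109% of the array did (limma, smallest adjusted p 0.291, and 6 probes at an unadjusted p under 0.05, against 10.6% of the array). Without the discordant part 0 passed, where 2.93% of the array did (limma, smallest adjusted p 0.0771; 6 probes at an unadjusted p under 0.05, against 15.7% of the array), and with both changes 0 passed, where 0.369% of the array did (limma, smallest adjusted p 0.223; 3 probes at an unadjusted p under 0.05, against 11.4% of the array). The part that position plays in single probes was not tested beyond this.

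**Figure D5:**
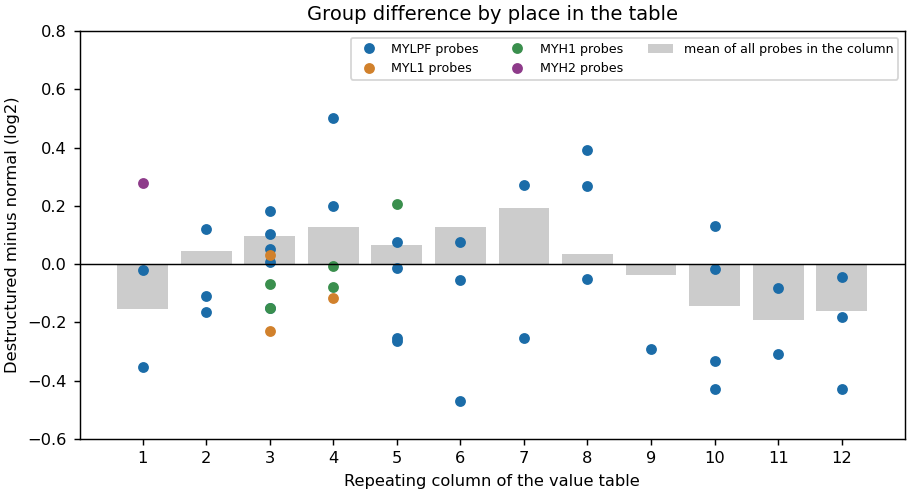
Difference between destructured and normal pigs (log2) by repeating column of the value table, with grey bars for the mean of all 384 probes in a column and points for the fast myosin probes. The bars are above 0 in columns 2 to 8 and reach -0.19 in column 11. In columns 2 to 7 the median of the points lay below the bar, and in the other columns on either side of it.

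Other genes of the contractile apparatus were counted over whole lists, all probes of each measured gene included. In the fast fibre list 3 of 10 genes were measured, the troponin subunits TNNC2 (binds calcium), TNNI2 (inhibits) and TNNT3 (anchors to tropomyosin), with 48 probes. Of these 0 were called in either direction by limma, where 0.651% of the array was called. At an unadjusted p under 0.05 stood 7, and 20 were positive and 28 negative, with a median of -0.092. That is 14.6% at an unadjusted p under 0.05 and 41.7% positive, beside 13.0% and 46.3% of the array. Without the discordant part 16 of the 48 were positive, against 48.7% of the array. The smallest p belonged to TNNI2 probe 7658 (0.45, SE 0.13, adjusted p = 0.0967).

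In the slow fibre list 6 of 12 genes were measured with 18 probes, 9 positive and 9 negative, with a median of -0.0072. Here 0 probes were called, beside 0.651% of the array, and 3 (16.7%) had an unadjusted p under 0.05, against 13.0%. By sign 50% were positive, against 46.3% of the array. Without the discordant part 12 of the 18 were, against 48.7%. MYH7, the slow heavy chain, had the smallest p of this list (probe 5503, 0.56, SE 0.16, limma adjusted p = 0.111), and its 5 probes ranged from -0.19 to 0.56. The 6 measured sarcomere genes had 25 probes, 7 positive (28%, against 46.3% of the array) and 18 negative, with a median of -0.089. Of the 25, 0 were called and 2 (8%) had an unadjusted p under 0.05, against 0.651% and 13.0% of the array. Without the discordant part 12 were positive, against 48.7% of the array. All 5 probes of TPM2, a tropomyosin, were negative, from -0.59 to -0.042, with a smallest limma adjusted p of 0.355. Every other measured gene of this list had at least 1 positive probe. For sarcomere genes the smallest p was that of ANKRD1 probe 6123 (0.36, SE 0.15, limma adjusted p = 0.289).

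Markers of other cell types were few. The adipocyte list held FABP4, a fatty acid carrier (0.28, adjusted p = 0.444), and PPARG, a regulator of fat cells (0.064). The matrix list held FN1 (-0.34), MGP (-0.58) and MMP2 (-0.14), the endothelial list PECAM1 (-0.031), and the immune list CXCL12 (-0.30) and 2 probes of CD74. By limma 0 of these 9 probes were called, where 0.651% of the array was, and 0 had an unadjusted p under 0.05, against 13.0%. With 9 probes these counts say little about other cell types. The mean level of the 2 adipocyte probes ran from 1.72 to 2.69 in normal and from 2.17 to 2.47 in destructured pigs, and that of the 3 matrix probes from 1.81 to 3.19 and from 1.75 to 2.30. In the immune list the ranges were 1.08 to 1.83 and 1.06 to 1.57, and for PECAM1 -0.53 to 0.11 and -0.29 to 0.19. No blood or nerve marker of the lists carried a name here. The part of other cells in the fast myosin values was not tested.

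After the group means were taken out, the gene means of MYLPF and MYL1 correlated over the 14 pigs at r = 0.780 (Spearman's rho 0.895). The r was 0.667 without the discordant part, and 0.689 without the 2 pigs farthest from the median of MYLPF. The highest r among 207 other named genes was above 0.780 for both. It was 0.854 for MYLPF (DLST, -0.056 without the discordant part) and 0.849 for MYL1 (MGST3, 0.759 without it). MYL1 and MYH1 had 0.688 (rho 0.569), which fell to 0.385 without the 2 pigs farthest from the median of MYL1. Without the discordant part it was 0.494 (rho 0.297), and 0.065 without the 2 pigs that were then farthest. The farthest pigs were picked afresh each time and were not the same 2, and the relation rested on a few pigs. MYLPF and MYH1 had 0.535, and 0.268 without the 2 pigs farthest from the median of MYLPF. The 2 heavy chains, MYH1 and MYH2, had 0.330 (rho 0.292). MYH2 had 0.161 with MYLPF and 0.113 with MYL1. These r are descriptions without a test, over pigs that share the normalization, and 6 pairs were looked at. Without the discordant part, the means of MYLPF, MYL1, MYH1 and MYH2 correlated with the array's median deposited intensity at 0.336, 0.467, 0.504 and 0.099. With it these values were -0.165, 0.201, 0.201 and -0.057. The part of array brightness in the pairs was not tested.

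Of the 207 other named genes, those most like each fast myosin in the same measure were picked by r over the 14 pigs. For MYLPF they were DLST (0.854), EEF1G (0.822) and IDH3B (0.817). Without the discordant part these r were -0.056, 0.021 and 0.28, so the likeness rested on that array. For MYL1 they were MGST3 (0.849), ORM1 (0.817) and XIRP2 (0.775), which without the discordant part stood at 0.759, 0.722 and 0.695. The most like to MYH1 were XIRP2 (0.741), ORM1 (0.687) and FOLR2 (0.654), at 0.530, 0.385 and 0.540 without it. MYH2 was nearest to RPS3A (0.723), B2M (0.608) and FHL3 (0.575), at 0.630, 0.631 and 0.500 without it.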

How the data were processed

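The authors deposited linear spot intensities of 4608 probes in 28 columns, quantified with BZscan from phosphor images, per the labels' protocols. The sources used here do not say whether background was corrected or the first hybridisation divided out. Log2 intensities were quantile normalized over the 28 columns, averaged over the 2 parts per pig and compared by limma 3.58.1 in R 4.3.3 (lmFit, eBayes, group as the only term, no filter, Benjamini-Hochberg over all probes at 0.05). With 7 arrays a group, their number limits the precision. The fit was checked on simulated data. Plots were made in Python 3.11.15 with matplotlib 3.10.9.

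Symbols came from the platform annotation, and the Entrez identifiers of all 4 genes carried the same symbols in RefSeq. The members, lists and alternatives were chosen with earlier results of these data known. Named probes were all of a gene with up to 3, otherwise the 3 with the smallest p, the brightest and the dimmest; other probes are named only where singled out after their values were seen (4950, 8824). For each list the probe with the smallest p is named, and the remarks on DES and TPM2 fell outside this rule. For each fast myosin the 3 most correlated named genes are given. Alternatives covered scaling, dim probes, array parts, a block on the part, the shared pig number, each pig, position, the variance model, weights, the offset, the threshold, the test and averaging of probes.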

Additional observations from a re-analysis of the deposited data

Results flagged for a closer look

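The highest or lowest of the 7 pigs of a group is given here where it lay far from its neighbour relative to the spread of the group (Dixon's criterion). This occurred 9 times in 34 groups, and chance alone gives about 1 in 20. The 34 groups reuse the same pigs and overlapping probes, so setting these rates side by side is not a test.

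Normal replicate 3 accounted for 6 of the 9. The 2 parts of its array correlated at 0.313 over the fast myosin probes, with the next normal pig at 0.866. It was the highest normal pig for MYLPF probe 6058 (0.360, next -0.233), for MYL1 probe 9087 (2.58, next 1.35), for MYH1 probe 7372 (2.18, next 0.912) and for the mean over the 34 MYLPF probes (1.68, next 1.40). For MYH1 probe 7517 it was the lowest (3.37, next 4.80).

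Normal replicate 1 was the highest normal pig for MYL1 probe 7984 (0.953, next -0.213). Destructured replicate 3, which shares a pig number with a normal pig, was the lowest of its group for MYLPF probe 8524 (3.63, next 3.91) and the highest for MYLPF probe 8390 (4.65, next 4.39).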

How the results depend on the processing

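In each of the 30 alternatives 0 of the fast myosin probes were called. The share of the array was small too. Tests of single probes at 0.05 called from 1 of 4608 probes (right part alone) to 135 (2.93%, without the discordant part). The smallest adjusted p, where single probes were tested, ran from 0.0571 (MYLPF probe 8524, without normal replicate 1) to 0.349, and without the dimmest 25% of probes 32 of the 43 were tested. The labels' replicate numbers mark the array parts; with the part as a replicate block and the pig as a random block 0 were called too, beside 107 of the 4608 probes of the array (smallest adjusted p 0.0587, MYLPF probe 6644). On the deposited scale all probes shifted by a median of 0.21, and the medians of MYLPF and MYH1 were 0.19 and 0.14. With position medians removed the median of MYH1 was -0.24, and the mean levels of MYH1, MYH2 and MYL1 relative to the median of all probes were 0.31, 1.06 and -1.60. The other medians moved by less than the spread between pigs.

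Of 360 values of the 13 named probes 35 changed sign, and the cause was not tested. None of these belonged to MYLPF probes 6644, 7944 and 8524 or to the MYH2 probe. On the deposited scale 5667, 7372, 7984 and 6058 turned to 0.14, 0.12, 0.14 and 0.27, and with median centring 6058 turned to 0.057. With array weights 7372, 7827, 7984, 9087 and 6058 turned to 0.12, 0.073, 0.00098, 0.014 and 0.047. The left part alone gave 0.19 for 7372 and -0.080 for 7517, and the right part -0.16 for 8390. Leaving out the discordant part gave 0.0057 for 5667, 0.15 for 7372, 0.028 for 7827 and 0.082 for 6058. With position medians removed 4791 was at -0.18 and 6058 at 0.12, and with both changes 7517 was at -0.15, 4791 at -0.11 and 6058 at 0.16. When each pig was dropped in turn, differences ran from -0.092 to -0.035 for 5667, -0.19 to 0.14 for 7372, -0.039 to 0.30 for 7517, -0.22 to 0.025 for 7827, -0.030 to 0.12 for 4791, -0.18 to 0.081 for 7984, -0.34 to -0.0086 for 9087, -0.060 to 0.090 for 6058 and 0.038 to 0.19 for 8390. The medians ran from -0.070 to 0.0034 for MYLPF, -0.18 to 0.066 for MYL1 and 0.21 to 0.35 for MYH2.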
